A study of Monopterus albus with 3 samples.

Results

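Scaffold394, scaffold157 and scaffold223 of the swamp eel (Monopterus albus) genome held 471 of the 63334 loci in the deposited transcript annotation, which is 0.744% of all loci on 3.71 Mb of annotated sequence. The 3 scaffolds were chosen by measured values, because they hold many loci per Mb of which few have a long open reading frame (ORF), here one of 300 bp or more. All transcripts under one Cufflinks gene identifier were taken as 1 locus, the longest ORF among them standing for it, and every locus of a scaffold was kept, with no filter on coverage. Scaffold394 held 139 loci, scaffold157 had 131 loci with a short ORF and 26 with a long one, and scaffold223 held 175. They were set against scaffold3, scaffold2 and scaffold4, which held 767, 633 and 562 loci, and against all 198 scaffolds of at least 1 Mb.

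The annotation came from RNA sequencing of gonads of a fish that changes from female through intersex to male. There was 1 library from the ovary of a female, 1 from the ovotestis of a hermaphrodite (labelled Intersex) and 1 from the testis of a male, each made from poly(A) RNA after extraction of total RNA with TRIzol, and no group had a replicate. Neither age nor strain is given in the labels, nor whether a library came from 1 animal or several. The file gives 1 coverage and 1 FPKM value per transcript for the series as a whole, so the gonads could not be compared, and the tissue labels could not be checked against marker genes because none of the identifiers matched a gene name.

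An ORF is a stretch of codons that runs from a start to a stop without interruption and could be read by the ribosome into protein. Any sequence holds short ORFs by chance, so a short ORF in a transcript may be a real small peptide gene, a fragment of a longer coding sequence, or a run of codons in a noncoding RNA. Read coverage is in principle the mean depth of reads over a transcript. The very high values given to short ORFs below are not plain measures of RNA abundance. Which of these kinds the loci described here belong to was not tested, since no sequence of the scaffolds was used.

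The values that chose the scaffolds are given first, as a description. Scaffold394 had 125 loci per Mb, scaffold157 had 119 and scaffold223 had 137, with a pooled density of 127 loci per Mb (exact Poisson 95% interval 115.9 to 139). Scaffold3, scaffold2 and scaffold4 had 65.7, 71.4 and 64.1 loci per Mb. Among the 198 scaffolds of at least 1 Mb, scaffold223 ranked 1, scaffold394 ranked 2 and scaffold157 ranked 5 in density, and ranks 3 and 4 fell to scaffold84, at 121 loci per Mb, and scaffold140, at 120. These were passed over by the rule, since 40.1% of the loci on scaffold84 and 27.6% of those on scaffold140 had a long ORF. The share was 18.7% on scaffold394, 16.6% on scaffold157 and 21.1% on scaffold223, against 37.0%, 34.1% and 35.9% on scaffold3, scaffold2 and scaffold4. Counted from the highest share, scaffold394, scaffold157 and scaffold223 ranked 181, 191 and 175 of 198, so some scaffolds had a lower one. Scaffold329 came close to the chosen scaffolds, with 112 loci per Mb and a share of 13.0%. The intervals here and in what follows cover counting error only, and loci are not replicates of a condition.

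**Figure D1:**
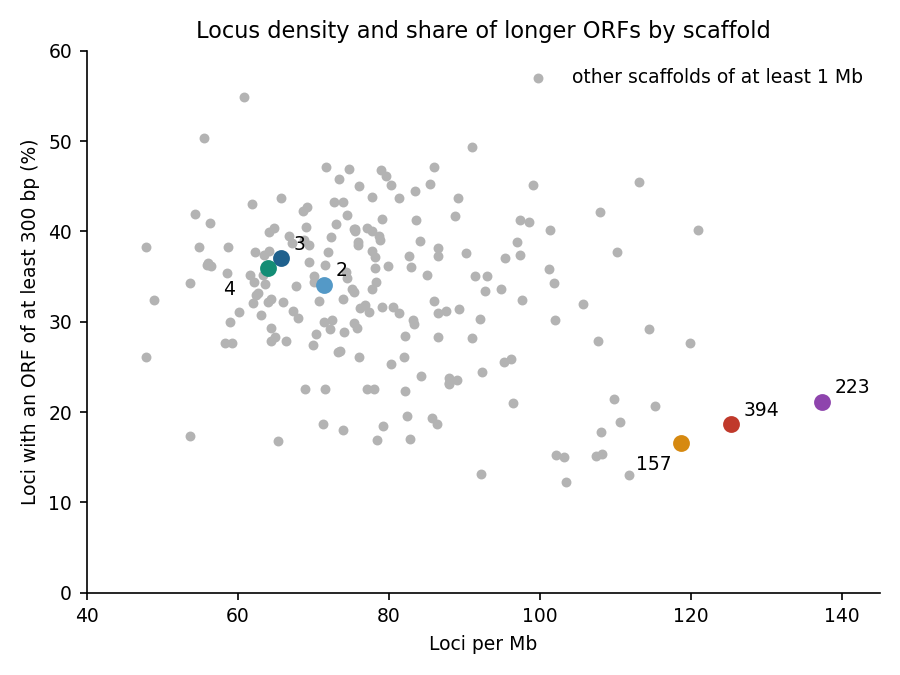
Each point is 1 of the 198 scaffolds of at least 1 Mb, with its loci per Mb on the horizontal axis and the percentage of its loci with a long ORF (300 bp or more) on the vertical axis. Scaffold394, scaffold157 and scaffold223 lie at the lower right, at 119 to 137 loci per Mb and 16.6 to 21.1%, and scaffold3, scaffold2 and scaffold4 lie within the main cloud.

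Divided by length class, the crowding lay in the short ORFs. This follows from the rule, which asked for many loci of which few have a long ORF, and is a description. Loci with a long ORF stood at 23.4 per Mb on scaffold394, 19.7 on scaffold157 and 29.1 on scaffold223, and pooled at 24.0 per Mb (95% interval 19.3 to 29.6) against 23.9 per Mb on scaffold3, scaffold2 and scaffold4. In this measure scaffold394 ranked 116 of 198, scaffold157 ranked 160 and scaffold223 ranked 65. Loci with a shorter ORF stood at 102, 99.1 and 108 per Mb, against 41.4, 47.0 and 41.0 per Mb on scaffold3, scaffold2 and scaffold4. Over all scaffolds of at least 1 Mb there were 51.4 per Mb. Scaffold3, scaffold2 and scaffold4 were themselves on the sparse side, as they ranked 163, 116 and 168 of 198. The pooled density of these short loci was thus 2.40 times that of scaffold3, scaffold2 and scaffold4, while longer ORFs were about as dense on both.

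The ratio was not even across lengths. ORFs under 30 bp were 1.96 times as dense on the 3 crowded scaffolds as on scaffold3, scaffold2 and scaffold4, and ORFs of 30 to 59 bp were 1.81 times as dense. The ratio was 2.75 for ORFs of 100 to 149 bp and 3.37 for ORFs of 150 to 199 bp, where 15.4 loci per Mb stood against 4.57. Over all scaffolds of at least 1 Mb that last class had 5.85 loci per Mb. For ORFs from 300 to under 600 bp the ratio was still 2.26, with 12.4 loci per Mb against 5.49, and 7.78 over all scaffolds of at least 1 Mb. The ratio was 0.954 for ORFs of 600 to 999 bp and 0.514 for those of at least 1000 bp. Of the latter the crowded scaffolds held 26, or 7.02 per Mb, against 13.6 per Mb. So the long ORFs had a like density only as a sum, with more ORFs just past the limit and fewer of 1000 bp or more.

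**Figure D2:**
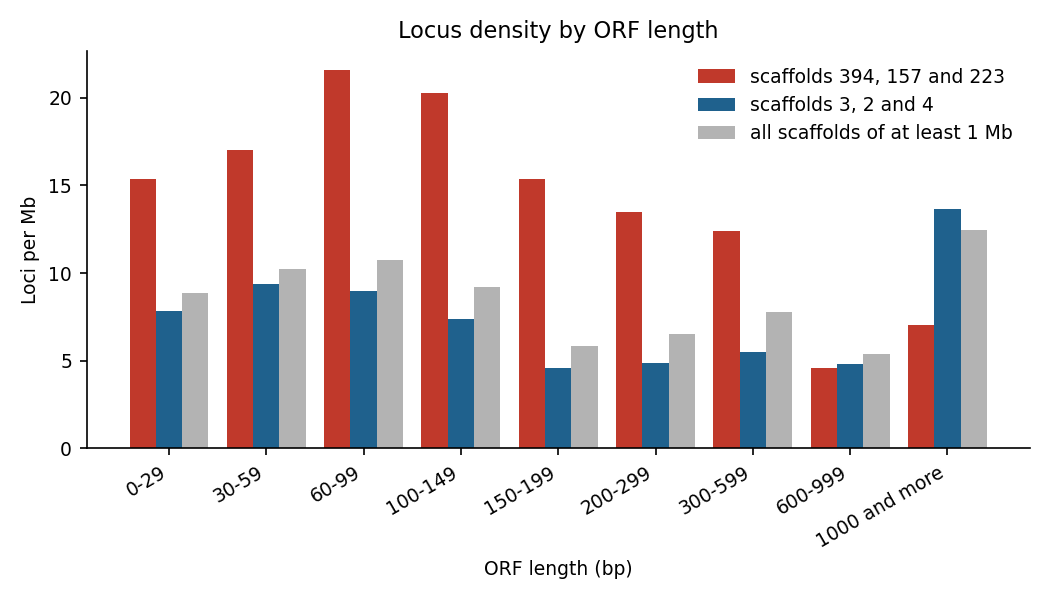
Bars give loci per Mb, from 0, by ORF length class in bp for scaffold394, scaffold157 and scaffold223 pooled, for scaffold3, scaffold2 and scaffold4 pooled and for all 198 scaffolds of at least 1 Mb. The crowded scaffolds stand above the others in every class under 600 bp, most in relative terms at 150 to 199 bp (15.4 against 4.57 loci per Mb), and below them at 1000 bp and more (7.02 against 13.6).

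The median ORF was 120 bp on scaffold394, 105 bp on scaffold157 and 132 bp on scaffold223, and lengths ran from 9 bp to 3186, 1959 and 4023 bp. On scaffold3, scaffold2 and scaffold4 the medians were 153, 135 and 148.5 bp. Within the loci under 300 bp the order turned, as the median was 99 bp on the crowded scaffolds (95% interval 84 to 105) and 76.5 bp on scaffold3, scaffold2 and scaffold4 (72 to 81), with 84 bp over all scaffolds of at least 1 Mb. The short ORFs of the crowded scaffolds were therefore not the shortest ones of the annotation. ORF length is part of the rule, so no test was made of it. Just inside the 300 bp limit, scaffold223 had an ORF of 300 bp, scaffold157 one of 303 bp and scaffold394 a pair that were 1 codon longer, with coverages from 4.87 to 60.3, and the nearest below it was an ORF of 282 bp on scaffold223 with a coverage of 3.28.

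Most loci were a single coding segment, that is, an ORF not interrupted by an intron. This held for 84.2% of loci on scaffold394, 89.8% on scaffold157 and 85.7% on scaffold223, against 68.1%, 70.8% and 66.5% on scaffold3, scaffold2 and scaffold4. The share is tied to ORF length and so to the rule. A difference was also seen among the long ORFs. Of the 89 such ORFs on the crowded scaffolds, 47 had several segments, or 52.8% (exact binomial 95% interval 41.9 to 63.5), against 78.9% of 702 on scaffold3, scaffold2 and scaffold4 (75.7 to 81.9). Scaffold157 was the lowest with 9 of 26, scaffold223 had 20 of 37 and scaffold394 had 18 of 26, so the difference was not alike on the 3 scaffolds. Of the 89, 46 were under 600 bp long, or 51.7% against 22.9%, and 35 of those 46 had 1 segment. Coding sequence made up 3.39% of scaffold394, 2.30% of scaffold157 and 4.19% of scaffold223, against 3.90%, 3.63% and 4.22% on scaffold3, scaffold2 and scaffold4.

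Each of the 3 scaffolds also held long loci with many coding segments. On scaffold394 the longest ORF had 3186 bp in 13 segments on the plus strand (positions 735963 to 774506 of the scaffold as the authors numbered it, with a coverage of 364). The next was a locus of 2145 bp in 24 segments that spanned 114.6 kb (74585 to 189136, coverage 29.1). On scaffold157 the longest had 1959 bp in 14 segments on the minus strand (80919 to 117107, coverage 62.5), while the third in length, 1464 bp, was a single segment (1018620 to 1020083, coverage 38.8). Scaffold223 carried the longest of all, with 4023 bp in 35 segments on the plus strand (573608 to 595730, coverage 163), and a minus-strand locus near its start with 3945 bp in 25 segments (5062 to 46351, coverage 134). Scaffold223 thus held both the highest locus density and the longest ORFs of the 3.

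Each of the 3 scaffolds had wide stretches without the start of a long ORF. Whether long ORFs were unevenly placed was not tested. On scaffold394 no long ORF started between positions 88640 and 298176, and the stretch of 209.5 kb held 22 short loci, of which 12 had a coverage of at least 1000, with a median coverage of 3004. The widest such stretch was 226.0 kb on scaffold157 (658168 to 884174), with 17 short loci, and 177.2 kb on scaffold223 (186328 to 363497), with 12. From start to start each was narrower than the widest on scaffold3, scaffold2 and scaffold4, at 419.2, 432.5 and 647.2 kb, which held 14, 7 and 20 loci. From the end of the first long-ORF locus the same stretches measured 209.2, 225.5 and 176.8 kb, against 341.0, 204.1 and 646.0 kb. By that measure the stretch on scaffold2 was narrower than those on scaffold394 and scaffold157. A widest stretch tends to be larger on a longer scaffold, and scaffold3, scaffold2 and scaffold4 were longer. The median gap between successive long ORFs was 21771, 19525 and 13988 bp on the crowded scaffolds, pooled 16042 (12302 to 23791). On scaffold3, scaffold2 and scaffold4 it was 12684, 11772 and 11803 bp, pooled 12495 (9880 to 14155). Up to position 189136 the stretch on scaffold394 lay within the span of the 24-segment locus. On scaffold394 the 100-kb window with the most starts (838811 to 938810) held 24 loci, of which 8 had a long ORF and 3 a coverage of at least 1000. Its median coverage was 14.9. On scaffold157 no long ORF with several segments started from position 148825 to 894357, a distance of 745.5 kb that held 100 loci, 87 of them short and 13 of them single-segment long ORFs. The longest distance of this kind was 419.2 kb on scaffold3, 432.5 kb on scaffold2 and 652.3 kb on scaffold4, each with 21 or fewer loci in it. Within that stretch of scaffold157 every long ORF was thus uninterrupted, and 5 short loci had several segments.

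**Figure D3:**
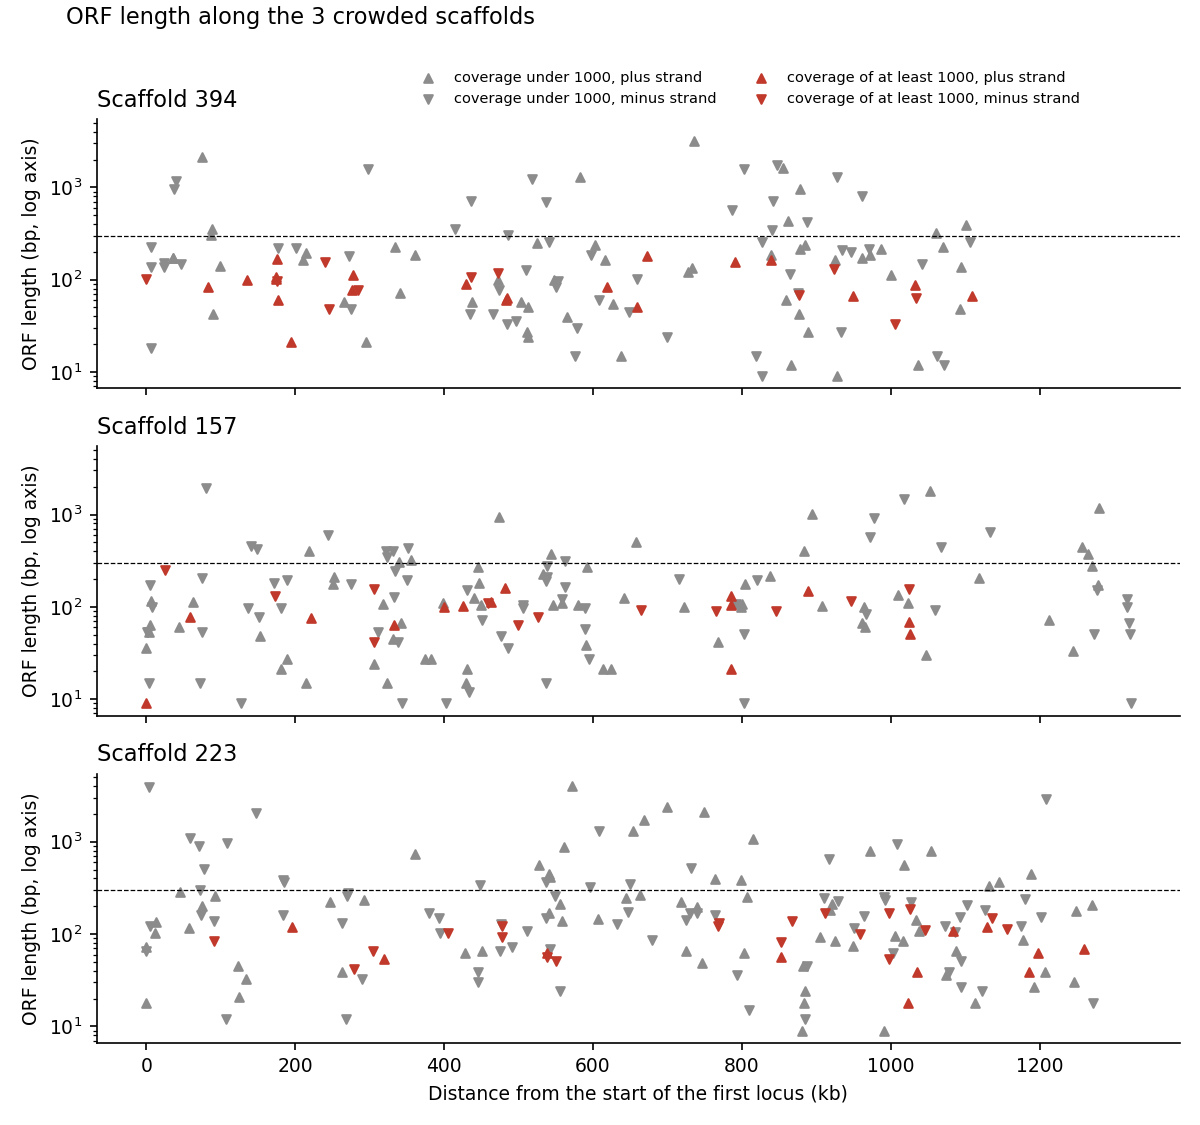
ORF length in bp on a log axis against distance from the first locus in kb, 1 panel per scaffold and 1 triangle per locus, pointing up for the plus strand and down for the minus strand, red where coverage is at least 1000, with a dashed line at 300 bp. All 88 red triangles lie under the dashed line. On scaffold394 a stretch of 209.5 kb without the start of a long ORF shows 22 short loci, of which 12 are red. Part of this stretch lies within the span of a long-ORF locus that starts before it.

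Coverage was not used to choose the scaffolds. The annotation gives the level of a locus as coverage and as FPKM (fragments scaled by transcript length and library size), and the ratio of the second to the first differed between scaffolds, so a level compared between scaffolds depends on which is read. On each of the 6 scaffolds the FPKM of a locus divided by its coverage lay between a lowest value and 2 times that value. The lowest value was 9.76 on scaffold394, 9.87 on scaffold157 and 8.62 on scaffold223, but 2.75, 2.10 and 2.72 on scaffold3, scaffold2 and scaffold4. Which of the 2 scales can be compared between scaffolds is not known, and both are given.

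In coverage the medians were alike, and in FPKM they were not. The median coverage was 28.0 on scaffold394, 23.9 on scaffold157 and 27.3 on scaffold223, pooled 26.4 (order-statistic 95% interval 22.5 to 31.7), against 27.8, 23.3 and 33.5 on scaffold3, scaffold2 and scaffold4, pooled 28.9 (25.2 to 33.5). The median FPKM was 396 on scaffold394, 332 on scaffold157 and 316 on scaffold223, pooled 359 (298 to 454), against 102, 61.7 and 120 on scaffold3, scaffold2 and scaffold4, pooled 95.5 (84.3 to 112), and 315 over the whole series. The order of the medians between the sets thus turned on the scale. Of the 471 loci, 52 had a coverage between 100 and 1000, or 11.0%, against 24.1% of the loci on scaffold3, scaffold2 and scaffold4. A coverage of at least 1000 was reached by 88, or 18.7% (15.3 to 22.5), against 9.58% (8.32 to 11.0), and by 13.9% of the loci of the whole series. The limit of 1000 was set after the values had been seen. With limits of 500 and 2000 the share was 19.96% and 17.4%, against 13.2% and 8.05%, and an FPKM of at least 10000 was reached by 19.3% (15.9 to 23.2) against 7.75% (6.60 to 9.02). On scaffold394 the share with a coverage of at least 1000 was 22.3%, on scaffold157 it was 16.6% and on scaffold223 it was 17.7%, which ranked 4, 22 and 18 of 198, so that other scaffolds had shares as high.

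Since short ORFs reach such coverages more often, the share was also taken within them. Among ORFs under 300 bp, 23.0% of 382 loci on the crowded scaffolds had a coverage of at least 1000 (18.9 to 27.6), against 13.3% of 1260 on scaffold3, scaffold2 and scaffold4 (11.5 to 15.3), 14.1% over all scaffolds of at least 1 Mb and 18.5% over the whole series. By scaffold it was 27.4%, 19.8% and 22.5% in the same order, against 12.0%, 14.6% and 13.6% on scaffold3, scaffold2 and scaffold4. Each of the 3 thus stood above each comparison scaffold, although the interval of scaffold157 (13.4 to 27.7) overlapped all of theirs and that of scaffold223 (15.8 to 30.3) overlapped those of scaffold2 and scaffold4. No test was made of the difference, because loci are not independent samples. Of the 89 long ORFs none reached 1000, which allows a share of up to 4.06%, against 20 of 702 (2.85%) on scaffold3, scaffold2 and scaffold4. The highest coverage of a longer ORF on the crowded scaffolds was 587, at a plus-strand locus of 1632 bp in 10 segments on scaffold394 (855726 to 858725).

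The highest coverages belonged to ORFs of 48 to 123 bp. On scaffold394 the highest was 2537780, at a minus-strand ORF of 96 bp (176404 to 176499), followed by 846513 at an ORF of 48 bp (245145 to 245192) and 756824 at one of 66 bp (949207 to 949272). On scaffold157 the highest was 258834 at a minus-strand ORF of 93 bp (665158 to 665250), then 200376 at one of 105 bp (785425 to 785529). On scaffold223 neighbouring minus-strand ORFs of 93 bp (479568 to 479660) and 123 bp (479100 to 479222) had 488169 and 451468. Such a coverage is a value of the assembly as deposited, given per transcript, whereas the positions are those of the ORF. The length of the transcript and the number of reads behind it are not known. The FPKM at the ORF of 96 bp on scaffold394 was 49518818. By the definition of FPKM that is more than all fragments of a library could give to a transcript of 96 bp or longer. Such values are not plain abundances. The 88 loci had ORFs of 9 to 252 bp with a median of 91.5 bp, 50 of them were under 100 bp, and 2 had more than 1 segment, both on scaffold157 (25890 to 42349, 252 bp in 5 segments, coverage 6613, and 889516 to 892635, 147 bp in 2 segments, coverage 1352). They were split over the strands, with 45 on plus and 43 on minus. The lowest coverages were 1.78 on scaffold394 (541612 to 541866, 255 bp), 2.40 on scaffold157 (5374 to 5436, 63 bp) and 1.87 on scaffold223 (394802 to 397878, 150 bp in 2 segments).

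The high coverages went with the highest FPKM per unit of coverage. Of the 88 loci with a coverage of at least 1000, 79 (89.8%) had the highest ratio of their scaffold to within 0.1%. The same held for 140 of 188 (74.5%) on scaffold3, scaffold2 and scaffold4, and for 80.7% over all scaffolds of at least 1 Mb. Among loci of any coverage, the highest ratio was reached by 135 of 471, or 28.7%, against 13.6% on scaffold3, scaffold2 and scaffold4. Over all scaffolds of at least 1 Mb it was reached by 15.5% of loci, and over the whole series by 27.0%. By definition at least 1 locus of every scaffold reaches it. The value of the series, with 8752 scaffolds of which 198 have at least 1 Mb, is raised by this and is not a like comparison. Without the loci at the highest ratio, 9 of 336 loci had a coverage of at least 1000 on the crowded scaffolds and 48 of 1695 on scaffold3, scaffold2 and scaffold4. The larger share of high coverages than on scaffold3, scaffold2 and scaffold4 was therefore seen only with those loci included, and the part of this scaling in it was not tested.

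**Figure D4:**
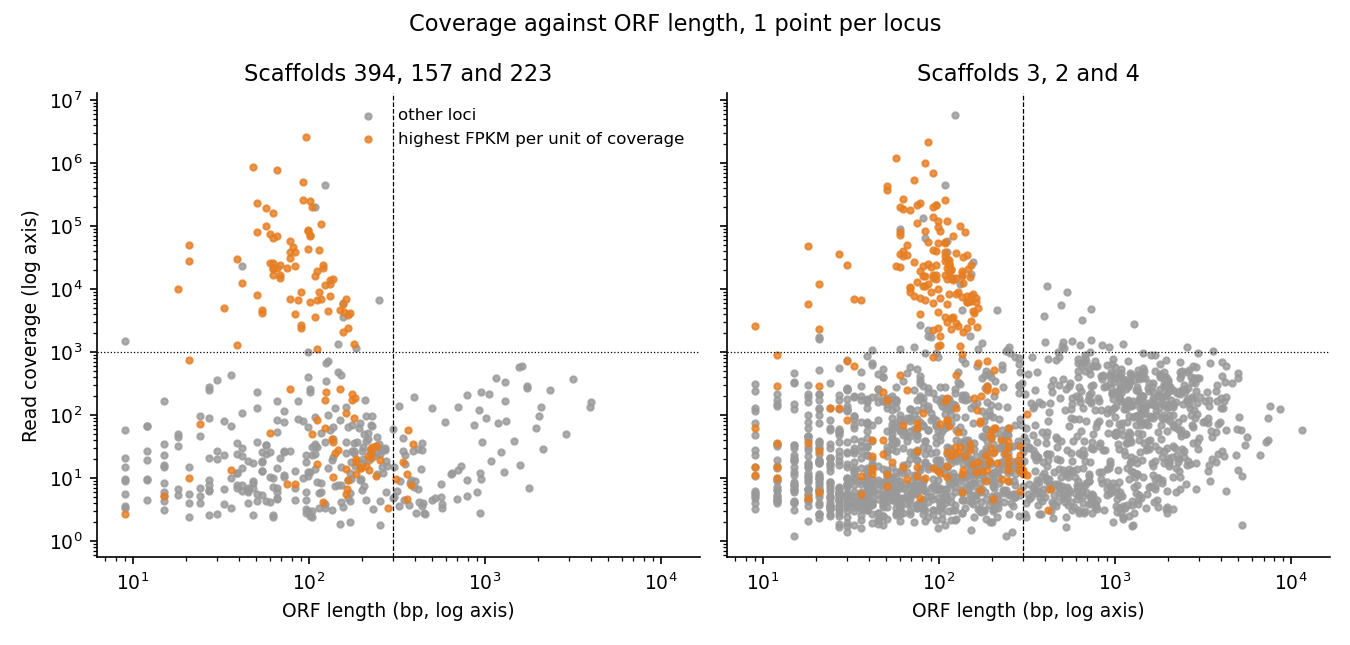
Read coverage against ORF length in bp, both on log axes, 1 point per locus, for scaffold394, scaffold157 and scaffold223 at left and scaffold3, scaffold2 and scaffold4 at right, with orange points at the highest FPKM per unit of coverage of their scaffold, a dashed line at 300 bp and a dotted line at a coverage of 1000. Above the dotted line 79 of the 88 points at left and 140 of the 188 at right are orange. None of those at left lies right of the dashed line, whereas 20 of those at right do.

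Within a scaffold the FPKM per unit of coverage also varied, by up to 2 times, and it was higher for short ORFs. Relative to the lowest value, its median on the crowded scaffolds was 1.70 for short ORFs and 1.11 for long ones. The difference was smaller on scaffold3, scaffold2 and scaffold4, at 1.15 and 1.06. Over all scaffolds of at least 1 Mb the medians were 1.24 and 1.06. On both scales the median of long ORFs was near or below that of short ones on the crowded scaffolds. The median coverage of long ORFs divided by that of short ORFs was 0.620 on scaffold394, 0.288 on scaffold157 and 1.01 on scaffold223, against 2.49, 5.32 and 2.92 on scaffold3, scaffold2 and scaffold4. In FPKM it was 0.502, 0.265 and 0.848, against 1.95, 4.64 and 2.29. Over all scaffolds of at least 1 Mb it was 1.90 in coverage and 1.38 in FPKM, and over the whole series it was 1.27 and 0.9502. These pooled values in FPKM mix scaffolds that differ in FPKM per unit of coverage, so they are not like the values of single scaffolds. In coverage the crowded scaffolds ranked 173, 195 and 150 of 198, and scaffold3, scaffold2 and scaffold4 ranked 72, 9 and 50. The median scaffold had a ratio of 1.93 and the lower quartile was 1.03. The intervals of the long-ORF and short-ORF medians overlapped on each crowded scaffold but on none of scaffold3, scaffold2 and scaffold4. On scaffold394 they were 12.5 to 135 and 19.9 to 69.1.

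Between scaffolds, the level of long ORFs depended on the scale. The median coverage of long ORFs was 19.7 on scaffold394, 7.64 on scaffold157 and 27.3 on scaffold223, pooled 16.7 (11.6 to 34.3), against 52.1, 79.1 and 75.6 on scaffold3, scaffold2 and scaffold4, pooled 59.2 (47.2 to 78.3). Without scaffold157 the pooled median was 25.8. The median FPKM of the same loci was 243, 106 and 301.0, pooled 201 (136 to 396), against 160, 182 and 217, pooled 180 (137.7 to 222.8), so on that scale the gap was not seen. In coverage the pooled gap was also smaller among loci of like make-up, though not on every scaffold. Among ORFs with several segments the median was 62.5 (15.9 to 126) against 94.4 (76.5 to 124), and among ORFs of at least 600 bp it was 69.1 (18.5 to 135) against 89.5 (72.4 to 115.9), with intervals that overlapped widely. By scaffold the several-segment median was 27.8 on scaffold394, 6.88 on scaffold157 and 88.7 on scaffold223, against 78.8, 125 and 91.9 on scaffold3, scaffold2 and scaffold4. It was thus lower on scaffold394 and scaffold157, but there it rests on 18 and 9 loci, with intervals of 13.2 to 289 and 3.77 to 89.5. The first interval includes 78.8, 125 and 91.9, and the second includes 78.8. Single-segment long ORFs had pooled medians of 9.27 and 13.1, below the several-segment ones on both sets. On scaffold157 alone they were not below, at 8.22 against 6.88. They made up a larger share of the long ORFs on the crowded scaffolds. On scaffold157, 16 of 26 long ORFs had a coverage under 10.

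Neighbouring loci were closer together, as their density requires. The median gap from the end of a locus to the start of the next was 3195 bp on scaffold394, 3236 bp on scaffold157 and 3088 bp on scaffold223, against 4365, 4726 and 5105 bp on scaffold3, scaffold2 and scaffold4. Gaps under 1 kb made up 21.6% of 468 neighbouring pairs against 12.4%, and gaps over 20 kb made up 7.26% against 17.8%. Neighbours are loci adjacent in order of start, so a gap can lie within the span of an earlier, longer locus. The widest gap was 53.0 kb on scaffold394 (361769 to 414764), 78.4 kb on scaffold157 (1133751 to 1212103) and 50.6 kb on scaffold223 (198032 to 248652). On scaffold3, scaffold2 and scaffold4 the widest were 200506, 106103 and 204910 bp, but these scaffolds are longer and have more pairs. In bins of 100 kb the median number of starts was 13 on scaffold394, 10 on scaffold157 and 14.5 on scaffold223, with ranges of 3 to 22, 2 to 24 and 6 to 22, and on scaffold3, scaffold2 and scaffold4 it was 6, 7 and 6. The median bin thus held more starts on each crowded scaffold than on each comparison scaffold. The bins were uneven, most of all on scaffold157, and the part of a few dense bins in the crowding was not tested. The densest 100-kb windows held 24, 25 and 24 starts on scaffold394, scaffold157 (305582 to 405581) and scaffold223 (992510 to 1092509).

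**Figure D5:**
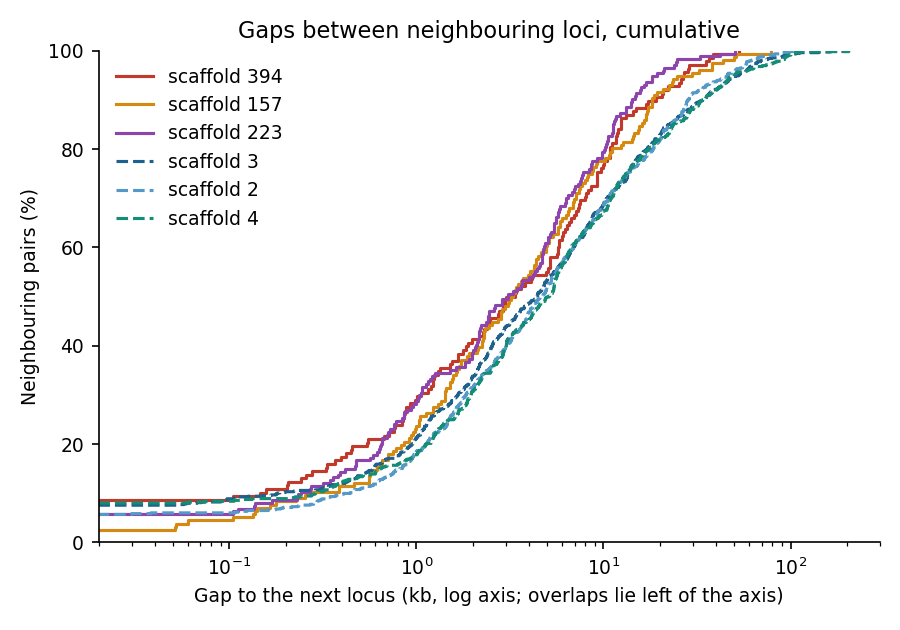
Cumulative percentage of neighbouring pairs by the gap in kb (log axis) from the end of a locus to the start of the next, 1 line per scaffold, solid for the crowded scaffolds and dashed for scaffold3, scaffold2 and scaffold4, with overlapping pairs left of the axis. Above a gap of 1 kb the solid lines run above the dashed ones, with medians of 3088 to 3236 bp against 4365 to 5105 bp.

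Some loci of high coverage were neighbours. Both loci of a neighbouring pair had a coverage of at least 1000 in 25 of 468 pairs, or 5.34%, of which 14 were within 1 kb, against 33 of 1959, or 1.68%, of which 8 were within 1 kb. The share of such loci was itself larger, at 18.7% against 9.58%, and whether they were grouped more closely was not tested. The clearest group stood on scaffold394 between positions 174718 and 177229, where 5 single-segment ORFs of 60 to 168 bp with coverages from 2423 to 2537780 lay within the span of the 24-segment locus of coverage 29.1. That locus held 11 single-segment loci in all, 9 on its own strand, and 7 of them had a coverage of at least 1000. On scaffold223 a 5-segment locus on the minus strand (918669 to 966727, 645 bp) held 8 single-segment loci, 4 on each strand. In total 50 of 408 single-segment loci lay within the span of a several-segment locus, 24 on scaffold394, 2 on scaffold157 and 24 on scaffold223, a share of 12.3% against 11.5% on scaffold3, scaffold2 and scaffold4. The protocol names no step that marks strand, so reads of overlapping loci on opposite strands cannot be told apart.

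The strand of a single-segment locus is that of the ORF chosen for it. The 471 loci were split into 233 on plus and 238 on minus. Neighbours shared a strand in 44.2% of pairs on scaffold394, 53.2% on scaffold157 and 48.9% on scaffold223, pooled 48.9% (44.3 to 53.6), against 50.7%, 54.4% and 55.4% on scaffold3, scaffold2 and scaffold4. The interval of the crowded scaffolds included an even split, and scaffold3, scaffold2 and scaffold4 pooled stood slightly above it, at 53.2% (51.0 to 55.5). These intervals overlapped and rest on 468 and 1959 pairs, so no difference between the sets is shown. Scaffold394 ranked 190 of 198 in this share, where the lower quartile was 48.8%. Of the pairs less than 1 kb apart on the crowded scaffolds, 54.5% were on the same strand (44.2 to 64.4). On scaffold394 pairs at least 5 kb apart shared a strand in 21 of 62 cases, or 33.9% (22.3 to 47.0). This was the lowest share among the 3 scaffolds in any class of gaps without overlap, and was picked for that. Pooled over the 3 scaffolds the same class had 46.1% (38.9 to 53.4), which includes an even split. Among successive long ORFs the share was 62.8% (51.7 to 73.0) against 60.2% on scaffold3, scaffold2 and scaffold4.

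The length of runs on 1 strand differed between the 3 scaffolds. The mean run held 1.78 loci on scaffold394, 2.12 on scaffold157 and 1.94 on scaffold223, against 2.13 on scaffold3, scaffold2 and scaffold4 pooled. In this mean the 3 ranked 190, 72 and 149 of 198, where the median scaffold had 2.06. The longest run on scaffold394 was 10 plus-strand loci (74585 to 189136), which began with the 24-segment locus and lay within its span. The longest on scaffold157 was 9 minus-strand loci (72384 to 154151), of which 3 had long ORFs and none had a coverage over 62.5. The longest on scaffold223 was 6 minus-strand loci (477587 to 513892), all short, with ORFs of 66 to 129 bp, and it contained the pair with coverages of 488169 and 451468. Scaffold3, scaffold2 and scaffold4 had longest runs of 10, 15 and 12 loci, but they hold more loci, and a longest run tends to grow with their number. Among the 51 scaffolds with 129 to 185 loci the median longest run was 8. Scaffold394, scaffold157 and scaffold223 ranked 7, 11 and 43 of these.

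No ORF length took more than 6 loci of a scaffold. The commonest lengths were 15, 42 and 60 bp on scaffold394, with 4 loci each, then 9, 15 and 99 bp on scaffold157, with 6 each, and 39 and 66 bp on scaffold223, with 6 each. On scaffold157 the closest starts were 77.3 kb apart for the 6 loci of 99 bp but 1276 bp apart for the 5 of 54 bp. All 5 ORFs of 123 bp on scaffold223 were on the minus strand and all 5 of 21 bp on scaffold157 were on plus, 2 cases noticed among many lengths and given as values. The 5 commonest lengths took 12.9% of loci on scaffold394, 17.8% on scaffold157 and 15.4% on scaffold223, which ranked 40, 3 and 11 among the 51 scaffolds with 129 to 185 loci, with a median of 14.1%. The share of loci whose ORF length recurred on the same scaffold was 64.7%, 68.8% and 62.3%, which ranked 6, 2 and 7 of the same 51, with a median of 48.5%. All 3 scaffolds were thus near the top by the second measure and only scaffold157 by the first. Short ORFs have fewer lengths to take, and the part of the larger number of short ORFs in this was not tested. Every ORF but 1 was a multiple of 3 bases. The exception was a locus on scaffold223 (543351 to 543900) whose only listed segment, numbered 2, had 443 bases, so that its first segment was not analysed here. It is counted above as a long ORF with 1 segment, although it is incomplete.

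Neighbours of equal ORF length were few. They made up 7 of 468 pairs, or 1.50% (0.603 to 3.06), with 1 on scaffold394, 4 on scaffold157 and 2 on scaffold223, against 20 of 1959 pairs, or 1.02%, on scaffold3, scaffold2 and scaffold4. The pair on scaffold394 was the same segment listed as 2 loci (36546 to 36716, 171 bp), with coverages of 5.82 and 2.02. The only run of 3 neighbours with equal ORFs was at the start of scaffold157, where ORFs of 54 bp lay at 939 to 992, 2848 to 2901 and 4124 to 4177, the first pair on minus and the third on plus, with like coverages of 25.6, 18.0 and 18.4. Whether these 3 have the same sequence could not be read from the annotation.

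The closest pairs without overlap lay from 51 bp apart. On scaffold394 a plus-strand ORF of 168 bp with a coverage of 2423 ended shortly before the minus-strand ORF of 96 bp that had the highest coverage of all 471 loci. On scaffold157 an ORF of 54 bp, the last of the run of 3, ended 51 bp before one of 15 bp, with coverages of 18.4 and 5.17. On scaffold223 ORFs of 443 and 417 bp, both on plus, lay 111 bp apart (543351 to 543900 and 544012 to 544428) with coverages of 27.3 and 29.1, close to each other. Overlaps were found in 12, 4 and 10 pairs on scaffold394, scaffold157 and scaffold223, or 5.56% of pairs, against 6.94% on scaffold3, scaffold2 and scaffold4. Only loci adjacent in order of start were compared, so loci further inside the span of an earlier locus are not counted as overlaps.

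At the ends of the scaffolds the first and last loci were all single short ORFs. Scaffold394 began with a minus-strand ORF of 102 bp and a coverage of 247838 (354 to 455) and ended with a plus-strand ORF of 66 bp and a coverage of 21074 (1109392 to 1109457). Scaffold157 began and ended with ORFs of 9 bp, with coverages of 1491 and 56.8, and scaffold223 with ORFs of 18 bp, with coverages of 6.56 and 49.2. Scaffold lengths were taken as the last annotated base, so sequence beyond these ends is not counted in the densities. Loci with more than 1 transcript were few, 10 on scaffold394, 9 on scaffold157 and 15 on scaffold223, or 7.22% of all against 20.2% on scaffold3, scaffold2 and scaffold4.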

How the data were processed

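The 3 gonad libraries of poly(A) RNA were sequenced by the authors, mapped with TopHat 1.3.3 and Bowtie 0.12.7 and assembled with Cufflinks 1.1.0, as the submitters' processing notes name them. By the study's methods ORFs of the transcripts were checked with a hidden Markov model. The deposited annotation gives, per transcript, coding coordinates on the authors' scaffolds, an FPKM value and a read coverage (a signal never below 0) from the authors' assembly, 1 each for the whole series. The number of reads behind the assembly is not given in the sources. No genome was given and no sequence was used.

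Members, comparison scaffolds and named loci were chosen with earlier results of these data known. Loci named per scaffold were the first and last, the 5 with the longest ORFs, the most segments, the longest span, the 5 highest and 2 lowest coverages, ORFs of 294 to 306 bp, the widest gap, the longest strand run, the 3 commonest lengths, runs of at least 3 equal lengths, the 3 closest pairs and the densest window of 100 kb. Of these the ones that carry a result are given. Counts, medians and 95% intervals (exact Poisson, Clopper-Pearson, order statistics) used numpy 2.4.6 and scipy 1.17.1 under Python 3.11.15, figures with matplotlib 3.10.9, and the code was tested on simulated data. There was no replicate, so no test was made.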

Additional observations from a re-analysis of the deposited data

How the results depend on the processing

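In total 54 alternatives were run over the pooled values of the 3 crowded scaffolds, of which 13 were added after the data were seen (FPKM in place of coverage, coverage limits, the subsets of longer ORFs and leaving out each scaffold for these), and 39 stayed within the interval of the value in the report. With every transcript counted the density was 139 per Mb, and with a coverage of at least 10 it was 89.1. The share of long ORFs was 41.6% at a limit of 150 bp and 9.13% at 600 bp. The mean of log2(coverage + 2), 6.39 over all loci, was 7.89 with a coverage of at least 10 and 10.01 for FPKM. The median was 359 in FPKM over all loci and 201 over long ORFs. The median gap, 3169 bp, was 4498 bp from start to start, 5222 bp between ORFs under 300 bp and 16042 bp between longer ones. Among ORFs of at least 300 bp median coverage was 16.7 and 62.8% of neighbours shared a strand, and that coverage was 69.1 at 600 bp or more and 62.5 with several segments. Leaving out 1 scaffold was run for the shares of long ORFs, single segments, same-strand neighbours and high coverage and for the medians of ORF length and of coverage over all loci and long ORFs, and moved none of these beyond its interval. The coverage of longer ORFs ran from 13.4 without scaffold223 to 25.8 without scaffold157. No paired analysis was possible because the values are not given per library.

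Depth limits are unknown, as reads per library are not given. Locus borders, strand of single segments and ORF choice are those of the deposited assembly.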
